A study of Mus musculus with 12 samples.

Results

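Interferon regulatory factors were followed in mouse splenic B cells at the level of mRNA. The genes were the 8 rows of the normalised count table named Irf1, Irf2, Irf3, Irf4, Irf5, Irf7, Irf8 and Irf9, out of 29486 genes listed. All 8 were among the 15592 genes with 10 or more scaled counts in 4 or more libraries. mRNAseq was performed on 12 libraries, 4 for each of 3 conditions. All of them came from splenic B cells of C57BL/6Babr mice that had been activated with LPS, a bacterial ligand of Toll-like receptor 4, at 10 μg/ml. The control cells, called LPS below, received LPS for 48 h and nothing else. The second condition received LPS for 48 h and then etoposide, a topoisomerase II poison that breaks DNA, at 20 μM for 4 h. The third condition received LPS for 47 h, then KU55933, an inhibitor of the DNA damage kinase ATM, at 10 μM for 1 h, and then the same etoposide treatment. Cells with KU55933 and without etoposide were not analysed here, and the labels do not say whether the LPS cells were kept for the further 4 h. Each condition also carried sequencing indexes that no other condition carried, so index and condition cannot be told apart.

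Interferon regulatory factors are transcription factors that share a DNA-binding domain and recognise GAAA repeats. Irf3, Irf5 and Irf7 wait in the cytoplasm until kinases downstream of innate immune sensors phosphorylate them, and they then drive type I interferon genes. Irf9 joins STAT proteins, Stat2 among them, in the complex ISGF3, which binds the interferon-stimulated response element (ISRE) of interferon-stimulated genes. Irf1 is an activator and Irf2 largely an antagonist at related sites. Irf4 and Irf8 bind DNA weakly alone and are recruited by partners such as PU.1 and SpiB. In B cells Irf8 belongs to the programme of the naive and germinal centre cell, whereas high Irf4 accompanies class switching and plasma cell formation.

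The family members differed in the regulatory letters around their own transcription starts. RefSeq promoter windows (GRCm38.p6, from 250 bases before to 50 bases after each start) were matched for 8 of 8 genes, giving 11 windows, and were searched on both strands. The ISRE core, GAAA with 2 bases of any kind before a further GAAA, was in 3.44% of 32851 promoters and in 1 family gene, Irf2. The gamma-activated site TTCNNNGAA, the element bound by STAT dimers, was in 8.30% of promoters and in 3 family genes, Irf1, Irf2 and Irf8. The TATA box letters TATAAA were in 13.6% of promoters and in 3 family genes, Irf4, Irf7 and Irf8. The ETS and IRF composite element, GGAA with 2 bases of any kind before GAAA (2.72% of promoters), occurred once, in Irf2, where it overlaps the ISRE core. The NF-kB letters, GGG with 2 bases of any kind before TTTCC (1.63% of promoters), also occurred in Irf2 alone among the 8 genes. The windows below are shown for the genes whose mRNA differed most between conditions and for Irf1, the counterpart of Irf2. Each is written 5′ to 3′ on the strand of the gene with the motif in capitals, and a match describes letters, not binding.
Irf2, ISRE core, chr8:46739495-46739523, plus strand: tggggaagtGAAAATGAAAttgacttttc
Irf2, gamma-activated site, chr8:46739511-46739539, plus strand: aaattgacttTTCCGAGAAatgatgaaag
Irf1, gamma-activated site, chr11:53769914-53769942, plus strand: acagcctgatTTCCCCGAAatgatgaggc
Irf8, first gamma-activated site, chr8:120736177-120736205, plus strand: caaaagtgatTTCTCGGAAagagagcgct
Irf8, second gamma-activated site, chr8:120736195-120736223, plus strand: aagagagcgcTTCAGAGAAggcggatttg
Irf8, TATA box, chr8:120736317-120736342, plus strand: ccgccccatcTATAAAagcaggcgcg
Irf4, TATA box, chr13:30749197-30749222, plus strand: cctccggctcTATAAAgttcctcttt
Irf7, TATA box, chr7:141266438-141266463, minus strand: cccgaagtacTATAAAagcactggca
The windows of Irf3, Irf5 and Irf9 held none of these letter strings.

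The deposited values set a limit on every comparison that follows. Within a condition, the 4 columns stood in 1 constant ratio to each other for every gene, so that they carry a fitted mean multiplied by a factor for each library. The spread of the 4 values of a gene therefore comes from those factors and holds no spread between cultures, and no test was possible on these columns. Whether the columns of 2 conditions overlap is likewise set by the fold and the factors, so overlap is given below as a description of the columns and supports no difference. Column totals ran from 20400994 to 30575195 counts. The columns of all 12 libraries were brought to a common scale together by the median of ratios and then averaged for each condition. Differences are given as log2 ratios of these scaled values plus 1. A difference of 1.5-fold was set against the share of all 15592 genes that differed by as much. Read as counts, the 4 columns of a member summed to between 4923 and 52169 in a condition. The 95% Poisson intervals then reached 0.859% to 2.80% to either side, which covers counting error only.

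With etoposide, 3 family genes had lower mRNA, Irf8, Irf2 and Irf5, and 5 differed by less than 1.5-fold. Irf8 was 3.95-fold lower, Irf2 was 2.16-fold lower and Irf5 was 2.08-fold lower than in LPS cells. None of the 8 was 1.5-fold higher. Thus 3 of 8 members passed 1.5-fold, a share of 37.5%, beside 38.2% of all genes in either direction and 16.4% in the lower direction. The median log2 difference of the members was 0.037, and that of all genes was −0.018. In bulk RNA, fewer cells of a type and less RNA per cell cannot be told apart.

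Markers of B cells were lower with etoposide as well. All 6 B cell markers were present, and their summed scaled counts were 133634 in LPS, 73156 with etoposide and 82567 with both drugs. Of the 6, 5 were past 1.5-fold lower with etoposide, including Pax5. Markers of macrophages and monocytes, cells that also express Irf5 and Irf8, passed the filter for 6 of 8 genes and summed to 427, 479 and 440. Of these 6 markers, 3 were past 1.5-fold higher with etoposide and 1 lower (median 0.74), beside 21.9% and 16.4% of all genes. Those of T cells passed for 1 of 6 genes and summed to 11.1, 22.7 and 14.7. For plasmacytoid dendritic cells, which hold much Irf7 and Irf8, 4 of 6 markers passed and the sums were 6815, 2758 and 2619, but Tcf4, a gene B cells also use, made up 6447, 2462 and 2187 of these. Their defining marker Siglech was near 0, at 0.628, 0.753 and 0.963. For conventional dendritic cells 3 of 5 markers passed and the sums were 2949, 1906 and 3397, of which Flt3 made up 2802, 1652 and 2943. The other passing markers, Zbtb46 and Xcr1, were higher with etoposide, at 0.81 and 0.75, and Clec9a was at 0.609, 0.831 and 0.715. Plasma cell markers summed to 21827, 20808 and 17688, those of NK cells to 2.11, 4.93 and 3.98, and those of red blood cells to 157, 143 and 86.8. What part the B cell, macrophage and dendritic cell markers had in the lower Irf8, Irf2 and Irf5 values was not tested.

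**Figure D1:**
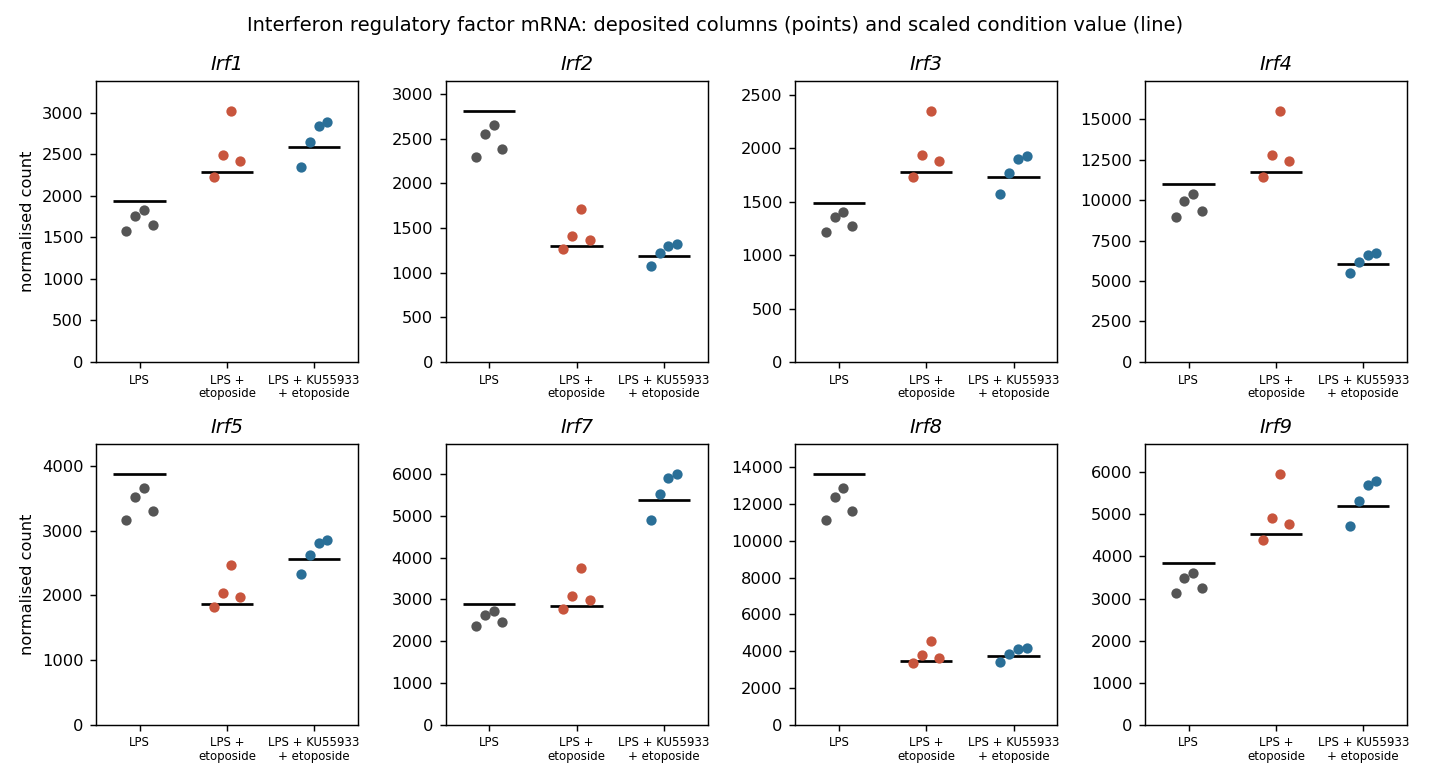
Normalised count (vertical axis, from 0) of each of the 8 genes in the 3 conditions. Points are the 4 deposited columns of a condition, whose spread comes from the library factors only, and the line is the scaled condition value. Irf8, Irf2 and Irf5 sit lower in both etoposide conditions, Irf4 is lowest and Irf7 highest with KU55933 and etoposide.

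Irf8 (chr8:120736358-120756694, plus strand, GRCm38) had the largest difference of the 8 genes. Its deposited values were 11151, 12371, 12869 and 11596 in LPS replicates 1 to 4. With etoposide they were 3357, 3763, 4557 and 3648, all below every LPS value. With KU55933 and etoposide they were 3385, 3817, 4089 and 4156, and these overlapped the etoposide values. The log2 difference with etoposide was −1.98, and it lay between −2.07 and −1.65 under the 7 ways of scaling compared. Only 0.385% of all genes had a lower value in that comparison. Adding KU55933 gave a difference of 0.11 from etoposide alone, which was under 1.5-fold, so that Irf8 with both drugs was still 3.66-fold below LPS.

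Irf2 (chr8:46739732-46847458, plus strand) had 2297, 2548, 2651 and 2388 in LPS and 1261, 1413, 1711 and 1370 with etoposide, without overlap. The log2 difference was −1.11, between −1.20 and −0.78 over the scalings. With KU55933 and etoposide the values were 1079, 1216, 1303 and 1325, and the difference from etoposide alone was −0.13. Against LPS the gene was 2.36-fold lower. Its counterpart Irf1 (chr11:53770014-53778374, plus strand) had the opposite sign. Irf1 had 1581, 1754, 1824 and 1644 in LPS, 2223, 2491, 3017 and 2415 with etoposide, and 2349, 2649, 2838 and 2884 with both drugs. The scaled difference for Irf1 with etoposide was 0.24, under 1.5-fold and positive under each scaling, from 0.15 to 0.58.

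Irf5 (chr6:29526625-29541871, plus strand), which acts downstream of Toll-like receptors through MyD88, had 3169, 3516, 3658 and 3296 in LPS. With etoposide the values were 1812, 2031, 2460 and 1969, again without overlap, and the log2 difference was −1.06 (−1.14 to −0.72 over the scalings). With KU55933 and etoposide they were 2329, 2627, 2814 and 2861, between the other conditions but overlapping the etoposide values. The difference between the etoposide conditions was 0.46, or 1.38-fold, and 89.0% of all genes had a lower one. Of the exonic bases of Irf5, 14.2% are shared with Tnpo3 on the opposite strand. The study describes a stranded library kit, but the strand setting of the counting is not given in the sources used here. Whether reads in that stretch were assigned by strand is therefore not known.

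The remaining family genes were under 1.5-fold with etoposide. Irf3 (chr7:44997648-45002848, plus strand), the constitutive interferon activator, differed by 0.25 (0.59 with the columns as deposited, past 1.5-fold), and its deposited values ran from 1221 to 1409 in LPS and from 1731 to 2350 with etoposide. Irf9 (chr14:55603571-55610030, plus strand) differed by 0.24, with values from 3135 to 3618 in LPS and from 4396 to 5967 with etoposide. No member's deposited values overlapped between these conditions, not even those of Irf7, whose scaled difference was −0.023. The library factors, which scaling removes, add to such gaps. The share of all genes without overlap was not counted. Irf4 differed by 0.098, between 0.0098 and 0.43 over the scalings. Irf7 differed by −0.023, and its sign turned with quantile scaling, with library totals, with the columns as deposited and with a scaling on genes with a mean of at least 100.

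Cells given KU55933 before etoposide differed from cells with etoposide alone by more than 1.5-fold in Irf7 and Irf4. Irf7 was 1.90-fold higher and Irf4 was 1.95-fold lower than with etoposide alone. The 2 of 8 members amount to 25%, beside 18.8% of all genes in either direction, 7.22% in the higher and 11.6% in the lower direction. The median of the members was 0.14, and that of all genes was −0.038. Since this comparison and the previous one share the etoposide libraries, each is given by its own values only.

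Irf7 (chr7:141262706-141266481, minus strand), the interferon-inducible amplifier of type I interferon synthesis, had 2359, 2617, 2723 and 2453 in LPS and 2760, 3093, 3746 and 2999 with etoposide. With KU55933 and etoposide it had 4896, 5521, 5914 and 6012, above every value of the other conditions. The log2 difference from etoposide alone was 0.93, between 0.83 and 1.03 over the scalings, and 2.27% of all genes had a higher one. Scaled by the median of ratios, the condition values were 2886 in LPS, 2840 with etoposide and 5396 with both drugs.

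Irf4 (chr13:30749226-30766976, plus strand) was abundant in LPS, with 8983, 9966, 10367 and 9342, and with etoposide, with 11428, 12809, 15514 and 12418. With KU55933 and etoposide it had 5476, 6175, 6615 and 6724, below every value of the other conditions. The log2 difference from etoposide alone was −0.96, between −1.06 and −0.87 over the scalings, and 4.98% of all genes had a lower one. The scaled condition values were 10990, 11761 and 6036. The annotation places no other gene over the exons of Irf4. Irf1, Irf3 and Irf7 share between 1.19% and 3.40% of their exonic bases with genes on the opposite strand, and Irf9 shares 2.28% with Rnf31 on the same strand.

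The other 6 family genes differed by less than 1.5-fold between the etoposide conditions. Irf5 stood at 0.46, Irf9 at 0.20, Irf1 at 0.18, Irf8 at 0.11 and Irf2 at −0.13. Irf3 stood at −0.041, and it became positive with TMM, quantile and library total scaling. The deposited values of Irf9 with both drugs were 4723, 5326, 5706 and 5800, within the range of the etoposide values. Those of Irf3 were 1571, 1772, 1898 and 1929 and overlapped the etoposide values as well.

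**Figure D2:**
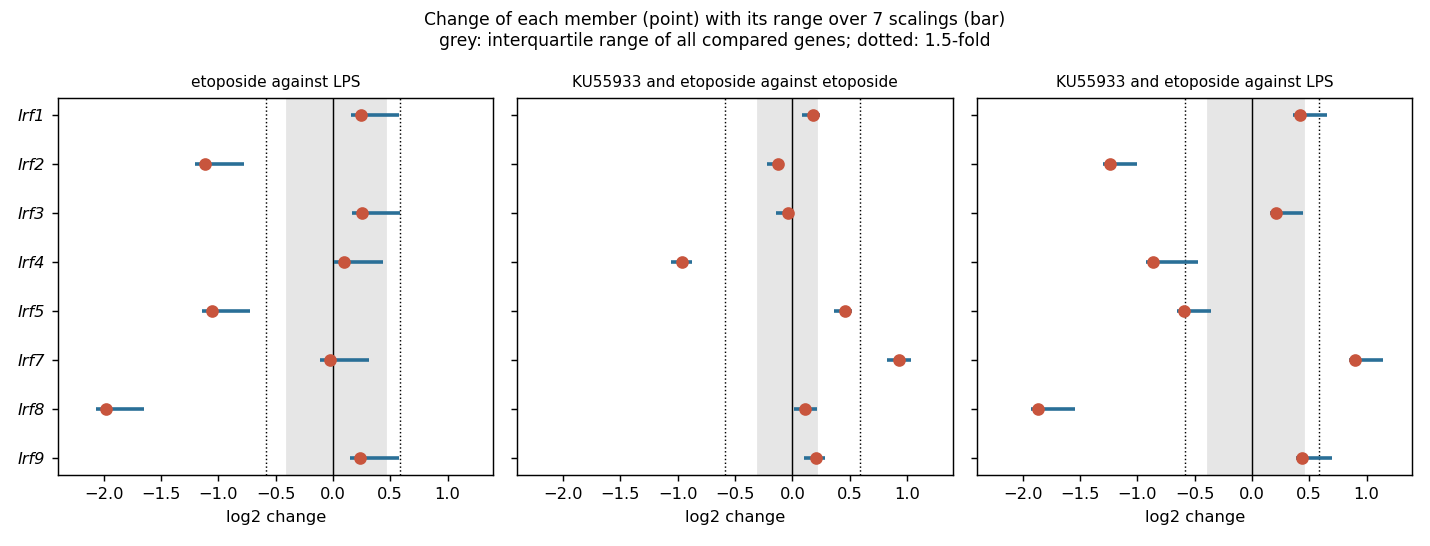
Log2 difference (horizontal axis) of each gene in the 3 comparisons. Points are the values on the median of ratios scale, bars span the 7 scalings, the grey band is the interquartile range of all 15592 genes and dotted lines mark 1.5-fold. Irf8, Irf2 and Irf5 lie left of the band with etoposide, and Irf7 and Irf4 lie on opposite sides of it when KU55933 is added.

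Against LPS, the cells with KU55933 and etoposide had 5 of 8 members (62.5%) past 1.5-fold, beside 36.2% of all genes in either direction. The direction was higher for 1, beside 20.5% of all genes, and lower for 4, beside 15.7%. The median of the members was −0.19, and that of all genes was 0.021. Irf7 was 1.87-fold higher, at a log2 difference of 0.90. Irf8 stood at −1.87, Irf2 at −1.24, Irf4 at −0.86 and Irf5 at −0.59. Irf5 lay at the threshold and was under 1.5-fold with TMM, quantile and library total scaling, with the columns as deposited and with the scaling on genes with a mean of at least 100. Irf4 was under it with quantile scaling, at −0.47. Irf9 at 0.44 and Irf1 at 0.42 were under 1.5-fold but passed it with quantile scaling, with library totals and with the columns as deposited. Under each of the 7 scalings, Irf7, Irf8 and Irf2 were past 1.5-fold and Irf3 was under it, at 0.21 (0.15 to 0.45). This comparison shares its libraries with both others.

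Relative levels within a condition were compared per kilobase of exon, since the genes differ in length. In LPS cells Irf4 at 2241 and Irf8 at 1934 scaled counts per kilobase were the most abundant, followed by Irf5 at 1335. Irf4 lay above 96.3% and Irf8 above 95.6% of the genes with a length. With etoposide Irf4 was at 2399, and the next gene, Irf9, was at 839.95. Irf8 was then at 489.72, below every other member except Irf2. With KU55933 and etoposide Irf7 led at 1429, followed by Irf4 at 1231 and Irf9 at 967. Irf2 had the lowest level of the 8 genes in each condition, at 379.89, 175 and 161. Since the columns used hold no replicate spread, neighbours in these orders were not tested against each other.

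The choice of length changed parts of this order. With the length of the longest transcript, Irf8 at 3933 lay above Irf4 at 2307 in LPS cells, and 10 of the 24 ranks were the same as with all exons. With etoposide, Irf8 ranked 4 of the 8 genes by that length, at 996, and 7 by all exons. Irf2 stayed lowest in each condition, Irf4 highest with etoposide and Irf7 highest with both drugs under either length. The merged exons of Irf7 form 1 block of 3776 bases that spans the whole gene, so any intron is counted in its length. Whether its longest transcript, of 3240 bases, also holds intron was not examined, so agreement between the lengths does not settle its rank. By exonic length, Irf8 made up 23.3% of the summed family level in LPS, 7.66% with etoposide and 8.32% with both drugs. Irf4 made up 27.05%, 37.5% and 19.4%, and Irf7 made up 9.22%, 11.8% and 22.5%.

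**Figure D3:**
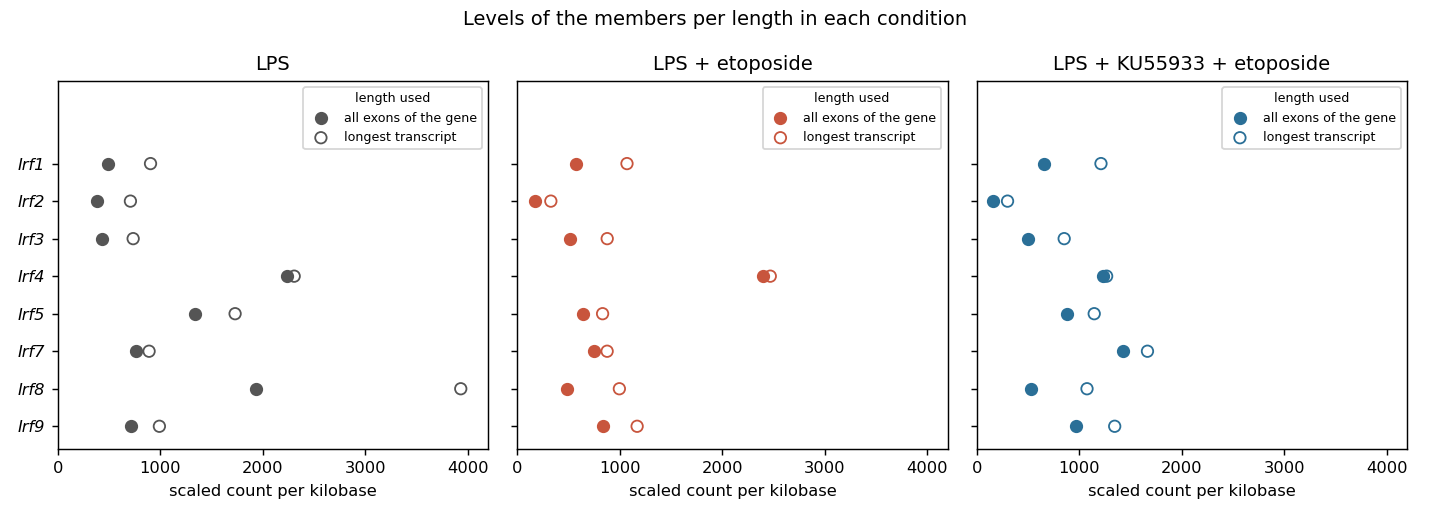
Scaled count per kilobase (horizontal axis) of the 8 genes in each condition. Filled points use the length of all exons and open points the longest annotated transcript. Irf4 and Irf8 lead in LPS, Irf4 alone with etoposide, and Irf7 with KU55933 and etoposide.

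Ratios between members within a library are untouched by any scaling that multiplies a library by 1 factor, which all scalings compared do except the quantile one. The values that follow come from the columns as deposited. Irf4 and Irf8 bind the same composite elements, and the count of Irf4 was 0.806 times that of Irf8 in LPS, 3.40 times with etoposide and 1.62 times with KU55933 and etoposide. Per exonic length these ratios were 1.16, 4.90 and 2.33, and per length of the longest transcript they were 0.587, 2.48 and 1.18. Irf1 to Irf2, activator to antagonist, was 0.688, 1.76 and 2.18 by counts. Irf7 to Irf3, the inducible to the constitutive interferon activator, was 1.93, 1.59 and 3.12. The Irf4 to Irf8 ratio was thus highest with etoposide alone, whereas the other ratios were highest with both drugs.

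The genes that feed into and out of these factors were described through 8 lists, of which 91 of 97 genes passed the filter on low counts. The counts of each list stand against 21.9% of all genes higher and 16.4% lower with etoposide, and 7.22% higher and 11.6% lower when KU55933 was added. Kinases and adaptors that activate Irf3, Irf5 and Irf7 were represented by 20 genes. With etoposide 2 were past 1.5-fold higher and 7 lower, with a list median of −0.44. This split depended on the scaling, with 1 to 5 higher and 2 to 8 lower and a median from −0.53 to −0.10. Ikbke, an Irf3 and Irf7 kinase, was higher by 2.14 on the log2 scale, from 1228 to 5428 scaled counts. Myd88, the adaptor for Irf5 and Irf7, was higher by 0.65, while its RNA-sensing receptor Tlr7 stood at −1.30. The adaptor Ticam1 stood at −1.02 and the cytoplasmic RNA sensor Ifih1 at −0.90. With KU55933 added, 1 gene was past 1.5-fold higher, Ifih1 at 0.97, and 2 were lower, Ikbke at −0.77 and the LPS receptor Tlr4 at −0.62. The median was then −0.014, and its sign turned with the scaling (−0.11 to 0.070).

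Interferon genes themselves were near the limit of detection. Of 6 ligands listed, only Ifna4 passed the filter, with scaled counts of 2.07 in LPS, 2.81 with etoposide and 17.0 with both drugs. It passed through the last condition alone. Ifnb1 had 1.16, 2.01 and 5.79, and no fold is given for either gene.

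Among 12 receptor, JAK and STAT genes, 1 was past 1.5-fold higher and 2 lower with etoposide (median −0.12, from −0.21 to 0.21 over the scalings). Socs1, a feedback inhibitor of JAK kinases, was higher by 1.86. Jak1 was lower at −1.24. Stat2, the partner of Irf9 in ISGF3, was lower at −1.17, with 6352 scaled counts in LPS, 2827 with etoposide and 5550 with both drugs. With KU55933 added, 3 were higher and none lower (median 0.16), namely Socs3 at 1.05, Stat2 at 0.97 and Jak2 at 0.88.

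Transcription factors that pair with Irf4 or Irf8 were measured for 11 of 12 genes. With etoposide, 2 were past 1.5-fold higher and 5 lower (median −0.47). Junb, an AP-1 subunit, was higher by 1.59 and Nfatc2 by 0.78. The lymphoid factors Ikzf1 and Ikzf3 stood at −2.35 and −1.68, and the E protein gene Tcf3 at −1.21. Spi1, which encodes PU.1, and Spib were under 1.5-fold, at 0.17 and 0.42. With KU55933 added, Jund was higher at 0.79, and Nfatc2 and Nfatc1 were lower at −0.83 and −0.78 (median 0.10). Of 10 coregulators, Irf2bpl was higher by 0.86 and the acetyltransferase Kat2b lower at −0.68 with etoposide (median −0.15, from −0.24 to 0.19 over the scalings), and none passed 1.5-fold when KU55933 was added (median 0.053).

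B cell differentiation genes bound by Irf4 or Irf8 numbered 9. With etoposide 4 were past 1.5-fold lower and 1 higher (median −0.52). Among the lower genes, the B cell identity factor Pax5 stood at −2.30 and Ciita, the activator of MHC class II genes, at −2.04. Sdc1, the plasma cell surface protein syndecan-1, was higher by 3.81. With KU55933 added, 1 gene was past 1.5-fold higher and 1 lower, the latter Sdc1 at −1.62 (median 0.032). Prdm1, which encodes the plasma cell factor Blimp-1, stood at −0.46 with etoposide and at −0.49 when KU55933 was added, both under 1.5-fold. Over the scalings the second value ran from −0.59, past 1.5-fold, to −0.45. With both drugs against LPS, Prdm1 stood at −0.95, past 1.5-fold under each scaling (−1.01 to −0.72).

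ISRE-driven interferon-stimulated genes were the list with the most members past 1.5-fold when KU55933 was added. With etoposide, 7 of 15 were lower, beside 16.4% of all genes, and none higher (median −0.58, from −0.67 to −0.25 over the scalings). Over the scalings 5 to 8 were lower and 0 to 1 higher. The lower genes were led by Ifit3 at −2.26, Ifit2 at −1.51 and Oasl2 at −1.42. With KU55933 added, 9 of 15 were higher, beside 7.22% of all genes, and none lower (median 0.83, from 0.73 to 0.93 over the scalings), led by Ifit1 at 2.11, Oasl1 at 2.01 and Ifit3 at 2.00. Antigen presentation genes driven by Irf1 were mixed. With etoposide, 2 of 13 were higher, Il15 at 2.19 and Cd274, the checkpoint ligand PD-L1, at 1.00. The 3 lower genes were Gbp7 at −1.24, the immunoproteasome subunit Psmb10 at −1.08 and Gbp2 at −0.95 (median −0.040, from −0.13 to 0.29 over the scalings). With KU55933 added, Gbp7 at 1.01 and Gbp2 at 0.73 were higher and Il15 was lower at −1.87 (median 0.21). With both drugs against LPS, 37 of the 91 list genes that passed the filter were past 1.5-fold, beside 36.2% of all genes. Among them were 6 lower and 1 higher of the 9 differentiation genes (median −0.93), and 3 higher and none lower of the 15 ISRE-driven genes (median 0.24). Of all genes, 20.5% were higher and 15.7% lower in this comparison.

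**Figure D4:**
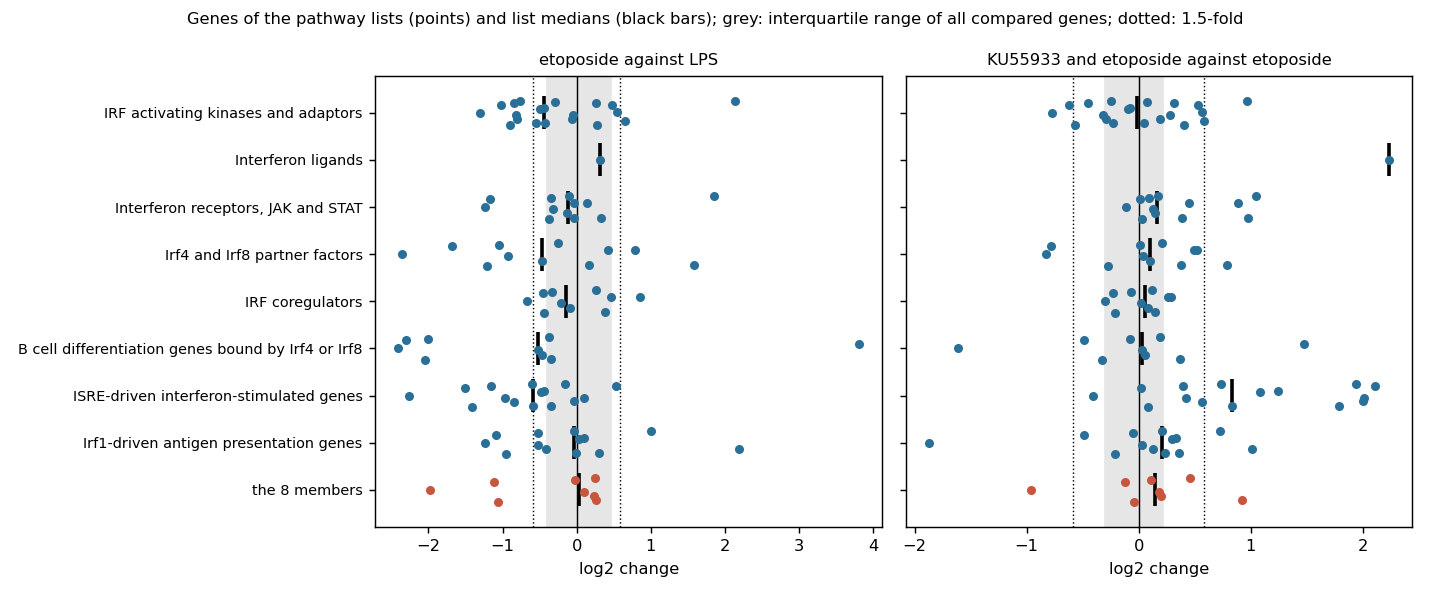
Log2 difference (horizontal axis) of each gene of the 8 lists and of the 8 family members with etoposide (left) and with KU55933 added to etoposide (right). Points are genes, black bars list medians, the grey band the interquartile range of all compared genes and dotted lines 1.5-fold. The ISRE-driven genes have a median of −0.58 on the left and 0.83 on the right.

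Members whose 3 condition values followed the same course were identified by the Euclidean distance between centred log2 profiles, over 3 conditions only. Irf1 and Irf9 were closest, at 0.018. Irf3 followed them at 0.18 from Irf1 and 0.19 from Irf9. Outside the family, 10873 genes with a mean of at least 100 were searched. The nearest to Irf8 were Ciita at 0.060, the RNA-binding protein gene Msi2 at 0.077 and Fcer2a, the gene of the B cell IgE receptor CD23, at 0.097. The nearest to Irf4 were Ubash3b at 0.019, Nuggc at 0.042 and Slc35g1 at 0.063. Irf7 lay nearest to Zfp358 at 0.020, Fam195b at 0.021 and Snhg5 at 0.055. For Irf2 the nearest were Cdh17, Ppp1r18 and Zeb2, and for Irf5 they were Slc16a13, Grap and Arrb2, all within 0.027. Osgepl1 and E4f1 were among the 3 nearest to Irf1. Irf3 lay nearest to the ribosomal pseudogene Rps19-ps1, whose reads may be shared with its parent gene, Ankrd26 and Rpl26, and Irf9 to Clk4, Inpp5e and Mpdu1. All of these lay within 0.016.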

How the data were processed

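Poly(A) mRNAseq libraries were prepared by the study and, per the labels, reads were trimmed with Trim Galore and cutadapt 1.2.1, mapped with TopHat2 2.0.12 (GRCm38, Ensembl 78), counted with HTSeq and modelled with DESeq2 1.6.3. The deposited table holds 1 normalised signal per gene and library, which the authors made from those counts. Within each condition the 4 columns were checked to be proportional for every gene (largest log2 deviation 1.42e-14), so they hold fitted means and no replicate spread. A limma fit could therefore not be run, and no p-value is given. The study describes 4 biological replicates. Further tables with the authors' fold changes, standard errors and p-values for these comparisons were not used.

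The columns were rescaled by the median of ratios over genes with 10 or more in 4 or more columns (factors from 0.817 to 1.32), averaged per condition and compared as log2(value + 1) against 1.5-fold, in Python 3.11.15 (pandas 2.3.3, numpy 2.4.6, scipy 1.17.1; plots in matplotlib 3.10.9). Adding 1 understates differences of low genes. Counting intervals are Poisson intervals at 95%. Gene positions and lengths came from GENCODE for GRCm38, and a length was found for 99.5% of the genes. The scaling was tested on simulated data in which few genes changed, as many higher as lower. That setting does not cover differences as widespread as those between these conditions, so it does not show which scaling is right here. Alternatives were other scalings (TMM, quantile, totals, as deposited, median of ratios over other gene sets), pseudocounts of 0.5 and 5, filters, folds, lengths and leaving out each replicate. The 2 other gene sets for the median of ratios were added after seeing the data.

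The members and the gene lists were chosen with earlier results of these data known. Named genes were all members, up to 3 genes of each list furthest above and below 0 past 1.5-fold in the first 2 comparisons, and the 3 nearest genes of each member. A few genes that this rule names are not reported here. Spi1, Spib, Prdm1 and Ifnb1 were named for their roles after their values were seen.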

Additional observations from a re-analysis of the deposited data

How the results depend on the processing

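No paired analysis was possible because the deposited columns hold no spread between replicates. For the same reason, leaving out each replicate in turn left all 84 counts and 288 of 288 member differences in place, with 3 to 3, 2 to 2 and 5 to 5 members past 1.5-fold and 37 to 39, 24 to 25 and 37 to 37 list genes, and this says nothing about stability. At 2-fold, 0 members passed when KU55933 was added to etoposide and 2, Irf2 and Irf8, passed with both drugs against LPS. The list genes past 2-fold numbered 23 with etoposide, 13 with KU55933 added and 17 with both drugs against LPS, beside 38, 24 and 37 at 1.5-fold. With a looser limit, a log2 difference of 0.32, they numbered 66 with etoposide and 45 with KU55933 added. Shares of all genes were counted at 1.5-fold only, so none stands beside the member and list counts at other limits. The longest transcript gave 10 of 24 ranks as with all exons. The other 71 of 79 counts stayed within 1.5 times, and no called member difference changed sign. Scaling moved the median of all genes by 0.13 and 0.17 with library totals (etoposide and both drugs against LPS), and by 0.33 and 0.23 with the columns as deposited. Of the genes past 1.5-fold with etoposide, 57.2% were higher, beside 46.2% with quantile scaling, 67.8% with totals and 81.8% as deposited. With KU55933 added the share was 38.3%, beside 25.6% as deposited, and for both drugs against LPS it was 56.6%, beside 71.9% with totals and 76.5% as deposited. Counting error, at most 2.80% for a member, was not the limit, whereas the missing spread between cultures was.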
